A study of Sus scrofa with 34 samples.

Results

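The genes ACAT1, BDH1 and OXCT1, which encode enzymes of ketone body synthesis and use, were followed in the liver and ileum of weaned piglets. They were chosen by symbol, 3 genes of 25880 in the count tables, and all 3 passed the filter on low counts in liver, in ileum and in both tissues together. Ketone bodies, mainly acetoacetate and 3-hydroxybutyrate, are made in liver mitochondria from the acetyl-CoA of fatty acid oxidation and are burned in other organs. ACAT1, the mitochondrial acetoacetyl-CoA thiolase, joins acetyl-CoA units into acetoacetyl-CoA, and it runs the same reaction backwards when ketone bodies are burned. Further enzymes turn acetoacetyl-CoA into acetoacetate, and BDH1 interconverts acetoacetate and 3-hydroxybutyrate. OXCT1 activates acetoacetate with succinyl-CoA for use, and textbook liver holds little of it, so that ketone bodies made there leave the organ. Pig liver is known for weak ketone body synthesis.

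Crossbred piglets (Landrace × Large White sows, Pietrain boars) of both sexes were fed 1 of 4 diets after weaning and sampled at day 28. CTR pigs received the basal diet, PFA pigs the basal diet with the phytogenic feed additive Digestarom, a plant product that contains essential oils, OO pigs a diet with oxidized oil, and OO + PFA pigs the oxidized oil diet with the additive. The oxidized oil was heated rapeseed oil given on top of the diet's fresh oil, so that oxidation and extra fat cannot be told apart, and each diet was fed in 1 pen, so that pen and diet cannot be told apart either. Bulk poly(A) RNA sequencing covered 24 livers (6 per diet) and 10 ilea (5 CTR and 5 PFA pigs, whose livers were also sequenced). The liver of pig OP-77 was left out, as the authors did, who suspected degraded RNA from the quality of its reads. The OO + PFA diet was thus measured in 5 livers. Pigs are named by diet (C for CTR, P for PFA, OO for OO and OP for OO + PFA) and number.

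The ileum libraries held 18772230 to 24338165 read pairs assigned to genes. The liver libraries other than OP-77 held 19839171 to 42446834. Of all pairs, 23.3 to 26.1% in ileum and 13.5 to 25.9% in these livers were not assigned to 1 gene. The excluded liver of OP-77 held 18738055 assigned pairs, and 36.7% of its pairs were not assigned to 1 gene. Levels are given as CPM, counts normalised to library size, with libraries scaled by the TMM method, among livers or among ilea for diets and over both tissues for tissue comparisons, and as CPM per kb of exon where genes are compared. The hepatocyte list had 17 measured markers of 19, all detected in each liver group and summing to 126700 to 259900 CPM in liver against 4349 to 9648 in ileum. The 12 measured markers of ileal epithelium, of 14, summed to 22580 to 41050 CPM in ileum and 523.7 to 1193 in liver. In these bulk samples, fewer cells of a type and less RNA per cell cannot be told apart. In the liver, titles came in 2 forms, PigLiv and PL, whose meaning the labels do not give. CTR, PFA and OO each held 3 or 4 PigLiv and 2 or 3 PL libraries. The 5 OO + PFA livers analysed were less even, with 4 PigLiv and 1 PL.

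In the pig genome (Sscrofa11.1, RefSeq annotation), ACAT1 (ENSSSCG00000026153) lay on the plus strand at chr9:36525266-36545634 with 12 exons. BDH1 (ENSSSCG00000024109) lay on the plus strand at chr13:132602372-132647271, with 4 transcript models that begin at 4 starts over 8487 bases and 10 exons in all. OXCT1 (ENSSSCG00000016863) lay on the minus strand at chr16:26514497-26659739 with 17 exons, and 945 bases of it were shared with LOC106505880, a long non-coding RNA of the opposite strand. The overlap was taken over whole gene spans, introns included, and whether it reaches exons of OXCT1 was not examined. Because the strand setting of the counting is not given in the sources used here, reads of a shared exon could belong to either gene. The 250 bases before each gene's RefSeq start are shown because the genes differed in opposite directions between the tissues. They are printed 5′ to 3′ on the gene's strand, and capitals mark the motifs searched on both strands: GGGCGG (the GC box), CCAAT (the CCAAT box), AGGTCA (a site bound by nuclear receptors) and TATAAA (the TATA box), none of which overlapped another.
ACAT1, chr9:36525016-36525265, plus strand: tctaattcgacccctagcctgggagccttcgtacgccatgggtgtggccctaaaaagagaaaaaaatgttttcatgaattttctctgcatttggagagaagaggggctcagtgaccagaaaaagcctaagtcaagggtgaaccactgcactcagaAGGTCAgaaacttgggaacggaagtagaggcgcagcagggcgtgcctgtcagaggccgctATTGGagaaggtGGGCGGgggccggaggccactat
BDH1, chr13:132602122-132602371, plus strand: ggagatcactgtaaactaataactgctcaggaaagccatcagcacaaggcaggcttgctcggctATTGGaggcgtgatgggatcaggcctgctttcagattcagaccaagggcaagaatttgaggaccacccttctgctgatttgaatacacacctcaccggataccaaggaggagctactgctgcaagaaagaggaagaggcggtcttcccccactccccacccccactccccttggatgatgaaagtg
OXCT1, chr16:26659740-26659989, minus strand: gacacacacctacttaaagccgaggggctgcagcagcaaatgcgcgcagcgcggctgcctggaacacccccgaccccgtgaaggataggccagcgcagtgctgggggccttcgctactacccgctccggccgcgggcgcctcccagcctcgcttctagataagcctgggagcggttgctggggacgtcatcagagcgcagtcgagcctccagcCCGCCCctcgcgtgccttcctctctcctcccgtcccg

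The 3 windows were unlike in base composition. The OXCT1 window held 24 CpG and 68.4% G and C, the ACAT1 window 9 CpG and 53.2%, and the BDH1 window 4 CpG and 52.8%. Over 20612 windows of the same length before pig genes, the median was 11 CpG and 57.2% G and C, and 20.8% of windows held at least as many CpG as that of OXCT1, 57.7% as that of ACAT1 and 76.8% as that of BDH1. GGGCGG was present once in the ACAT1 window, beginning 23 bases before the start, and once in the OXCT1 window, 37 bases before it on the other strand, and in 44.5% of all windows. CCAAT was found once for ACAT1, 35 bases before the start, and once for BDH1, 186 bases before it, both on the other strand, against 32% of all windows. AGGTCA was found only in the ACAT1 window among the 3, 95 bases before the start, and in 12.3% of all windows. TATAAA was in none of the 3 windows and in 10.4% of all. For BDH1 the window belongs to the outermost of its 4 starts.

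Liver and ileum of the same CTR pigs were compared first, to place the 3 enzymes on the tissue map of ketone body metabolism. The paper gives a lower minimum of RNA integrity for liver than for ileum, so that RNA quality may differ with the tissue. Its part in the tissue differences was not tested. On the scale shared by both tissues, ACAT1 was at 253, 166.5, 283.5, 279.2 and 276.5 CPM in the livers of C-71, C-80, C-92, C-100 and C-110, and at 52.5, 50.6, 68.5, 59.8 and 52.8 CPM in their ilea. The lowest liver lay above the highest ileum. ACAT1 was 4.43-fold higher in liver (95% interval 3.35 to 5.86, log2 difference 2.15, SE 0.19, n = 5 pigs, edgeR quasi-likelihood adjusted p = 3.88e-09).

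BDH1, the dehydrogenase, was also higher in liver. Its levels were 229.6, 320.4, 412.5, 317.7 and 447.2 CPM in the livers of the same pigs, in the same order, and 27.8, 26.3, 38.9, 28.4 and 35.3 CPM in their ilea. The groups did not overlap, and BDH1 was 11.0-fold higher in liver (95% interval 7.97 to 15.3, log2 difference 3.46, SE 0.22, edgeR adjusted p = 1.92e-11).

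OXCT1 went the other way. It was at 8.90, 6.14, 6.38, 7.80 and 5.69 CPM in the 5 livers and at 108.1, 111.9, 130.8, 115.1 and 166.9 CPM in the 5 ilea. Every ileum lay above every liver, and OXCT1 was 18.2-fold lower in liver (log2 difference −4.18, SE 0.18, edgeR adjusted p = 1.78e-14). In raw counts, OXCT1 had 82 to 224 read pairs in the 23 livers and 3394 to 5244 in the 10 ilea, so that it was low but detected in each liver.

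All 3 genes passed the test in a comparison in which 69.5% of 14982 genes did, 33.1% higher and 36.4% lower in liver, so that passing it is common. The share of all genes without overlap between the tissues was not counted. Differences at least as large in either direction were found for 21.6% of genes in the case of ACAT1, 12.1% for BDH1 and 9.3% for OXCT1. Other scalings kept the direction of all 3: the median difference of all genes was −0.05 (log2) with TMM and −1.15 without scaling, where ACAT1 stood at 1.06, BDH1 at 2.37 and OXCT1 at −5.28. Of the genes passing the test, 47.7% were higher in liver with TMM and 15.2% without scaling.

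Markers of other cell types differed along with the tissue. In the CTR pigs, 7 of 7 smooth muscle markers and 9 of 10 lymphocyte markers were lower in liver. Summed levels, over 5 ilea and 6 livers, were 2057 to 8362 CPM in ileum against 79.7 to 256.7 in liver for smooth muscle. For lymphocytes they were 1144 to 2026 against 73.6 to 142.4. None of these markers was at 0 throughout a group in either tissue. The part of the cell types in the tissue difference of OXCT1 was not tested.

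The balance of the 3 genes within a library, which does not depend on scaling, differed between the tissues without overlap. For OXCT1 over ACAT1 or BDH1 this restates the opposite differences given above. The share of other gene pairs that separate the tissues likewise was not counted. Per kb of exon, OXCT1 was 1.69 to 2.81 times ACAT1 in the CTR ilea and 1.71 to 2.33 times in the PFA ilea, and between 0.0134 and 0.0451 times in the 23 livers. The ratio of OXCT1 to BDH1 ran from 8.42 to 12.9 in the ilea and from 0.0276 to 0.127 in the livers. BDH1 was 0.157 to 0.237 times ACAT1 in the ilea and 0.293 to 0.730 times in the livers. For means in CPM per kb, livers and ilea were scaled apart. The CTR livers held ACAT1 at 104.4 ± 18.6 (SD, n = 6), BDH1 at 54.6 ± 13.4 and OXCT1 at 2.54 ± 0.50. The CTR ilea held OXCT1 at 101.7 ± 20.7 (SD, n = 5), ACAT1 at 51.4 ± 6.68 and BDH1 at 10.05 ± 1.82. These means rank genes within a tissue and do not measure the difference between tissues. Their order was ACAT1, BDH1, OXCT1 in liver and OXCT1, ACAT1, BDH1 in ileum. The order of ACAT1 and BDH1 in liver rests on the length given to BDH1, here 4597 bases over the exons of all 4 models, and in CPM not divided by length BDH1 was the higher of both in the CTR livers (251 against 170.1). With the shortest BDH1 model, of 2891 bases, the BDH1 mean in the CTR livers was 86.8 CPM per kb, nearer to ACAT1, and a shorter transcript than those annotated could turn the order. Which model the livers used was not measured by these gene counts.

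**Figure D1:**
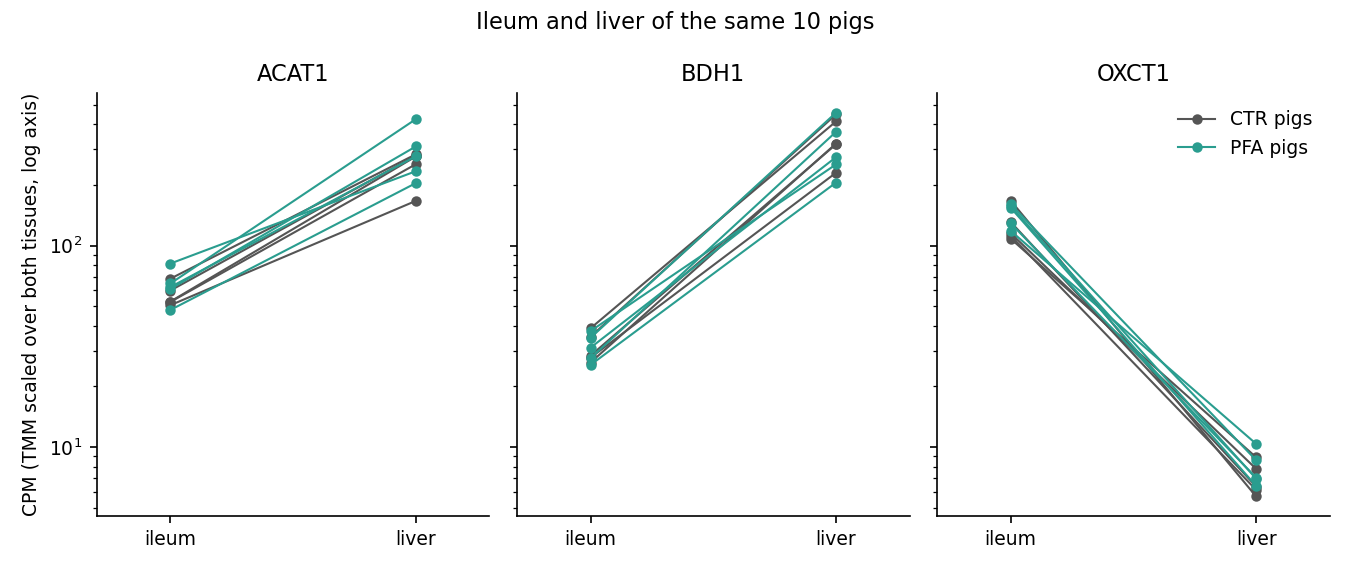
Levels of ACAT1, BDH1 and OXCT1 in the ileum and liver of the same 10 pigs (CPM, TMM over both tissues, log axis), 1 line per pig. ACAT1 and BDH1 were higher and OXCT1 was lower in liver than in ileum in each of the 5 CTR and 5 PFA pigs.

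BDH2, a cytosolic dehydrogenase related to BDH1, was also higher in liver, by 0.79 on the log2 scale (SE 0.25, edgeR adjusted p = 0.00771).

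By list, of 4 tested ketone use enzymes, which include the 3 genes, 3 were higher in liver and 1, OXCT1, was lower, with AACS, the cytosolic acetoacetyl-CoA synthetase, higher by 3.33 (log2, SE 0.21, adjusted p = 8.6e-12). All 5 tested thiolases and all 8 enzymes of isoleucine breakdown, ACAT1 counted in both, were higher in liver, as were 16 of 18 genes of mitochondrial beta-oxidation, against 33.1% of all genes. Of 6 tested genes of monocarboxylate transport, by which ketone bodies cross membranes, 2 were higher and 4 lower in liver, the higher being SLC16A6 (4.88, SE 0.36) and SLC16A7 (0.46, SE 0.19). SLC16A1 and BSG, also in that list, were not matched by symbol to a counted gene and were tested in no comparison.

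Diets were compared in liver to ask whether oxidized oil, the additive or both moved the 3 genes. BDH1 had the largest difference between OO and CTR of the 3. Its lowest, median and highest levels were 159.6, 250 and 322.5 CPM in the 6 CTR livers, 141.3, 183 and 306.1 CPM in the 6 PFA livers and 281.7, 337.8 and 435 CPM in the 6 OO livers. The 5 OO + PFA livers were at 201.8 (OP-79), 326.7 (OP-98), 321.1 (OP-105), 290 (OP-126) and 279.7 CPM (OP-137). All 6 OO pigs lay above the CTR mean and 4 above the highest CTR pig, yet the groups overlapped. The order of the means was OO (347.5 ± 54.4), OO + PFA (283.9 ± 50.03), CTR (251 ± 61.5) and PFA (205.5 ± 59.3), and neighbouring diets in it overlapped.

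In the direct comparison of OO with CTR, BDH1 was 1.38 times the CTR level and did not pass the test (log2 difference 0.47, 95% interval 0.09 to 0.85, unadjusted p = 0.0176, edgeR adjusted p = 0.141), where 2.71% of 13831 genes passed. OO + PFA against PFA gave BDH1 the same difference, 0.47 (95% interval 0.07 to 0.86), which also missed the threshold (edgeR adjusted p = 0.157), with 1.58% of genes passing. The oil effect averaged over both levels of PFA, a contrast added after these values were seen, uses all 23 livers. In it, BDH1 rose by 0.47 on the log2 scale (SE 0.13, 95% interval 0.19 to 0.74, edgeR adjusted p = 0.0266), and 11.8% of genes passed. The call held in 22 of 23 fits that left out 1 pig and was lost without OO-130 (adjusted p = 0.0548).

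The test for any difference among the 4 diets gave BDH1 an edgeR adjusted p of 0.0653 (unadjusted p = 0.00355), just short of a call, with 3.66% of genes passing. Without P-95 this adjusted p was 0.0227 and without OO-97 0.037, while DESeq2 gave 0.0252. Within the libraries titled PigLiv, OO exceeded CTR by 0.54 on the log2 scale (3 against 4 livers), and within those titled PL by 0.39 (3 against 2). Of the macrophage and Kupffer cell markers, 0 of 10 passed the test in OO against CTR with edgeR or DESeq2 (2 at an unadjusted p under 0.05). In that comparison 10 of 10 had a difference above 0, where the median log2 difference of all genes was 0.06. Their summed level overlapped between diets, at 529.1 to 1464 CPM in CTR and 1025 to 1908 in OO. It was 657.7 to 1584 CPM in PFA and 936 to 2143 in OO + PFA, with no marker at 0 throughout a group. Of 17 hepatocyte markers, 2 were lower in OO by the test, and the summed level was 126700 to 207200 CPM in CTR and 135700 to 172800 in OO. The part of these cell types in the BDH1 levels was not tested.

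ACAT1 varied less between diets. The lowest, median and highest levels were 114.7, 181.9 and 193.3 CPM in CTR, 140.5, 198.6 and 284.3 in PFA and 151.3, 214.6 and 225.3 in OO, with OO + PFA livers at 146.7, 207.5, 225, 216.9 and 180.4 CPM in the order of pigs given above. The 4 groups overlapped, and the order of the means was OO (202.4 ± 27.2 CPM, SD), PFA (200 ± 50.3), OO + PFA (195.3 ± 31.9) and CTR (170.1 ± 30.4). OO differed from CTR by 0.25 on the log2 scale (95% interval −0.08 to 0.58, edgeR adjusted p = 0.375). That difference was −0.02 within the libraries titled PigLiv and 0.70 within those titled PL. Averaged over both PFA levels, the oil difference of ACAT1 was 0.11 (edgeR adjusted p = 0.588), and the test of any diet difference gave 0.571.

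OXCT1 was low in the liver under every diet. The lowest, median and highest levels were 3.87, 4.28 and 6.19 CPM in CTR, 3.85, 4.78 and 7.15 in PFA and 4.45, 5.04 and 6.91 in OO, and the OO + PFA livers were at 4.96, 5.16, 4.19, 3.85 and 4.50 CPM. No diet separated from another, and the order of the means was OO (5.32 ± 0.92 CPM, SD), PFA (5.13 ± 1.21), CTR (4.66 ± 0.93) and OO + PFA (4.53 ± 0.54), with overlap between neighbours. OO differed from CTR by 0.19 (log2, 95% interval −0.14 to 0.53, edgeR adjusted p = 0.512), with 0.03 within the PigLiv titles and 0.45 within the PL titles. Averaged over both PFA levels the oil difference was 0.01 (edgeR adjusted p = 0.975), and the test of any diet difference gave 0.63.

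**Figure D2:**
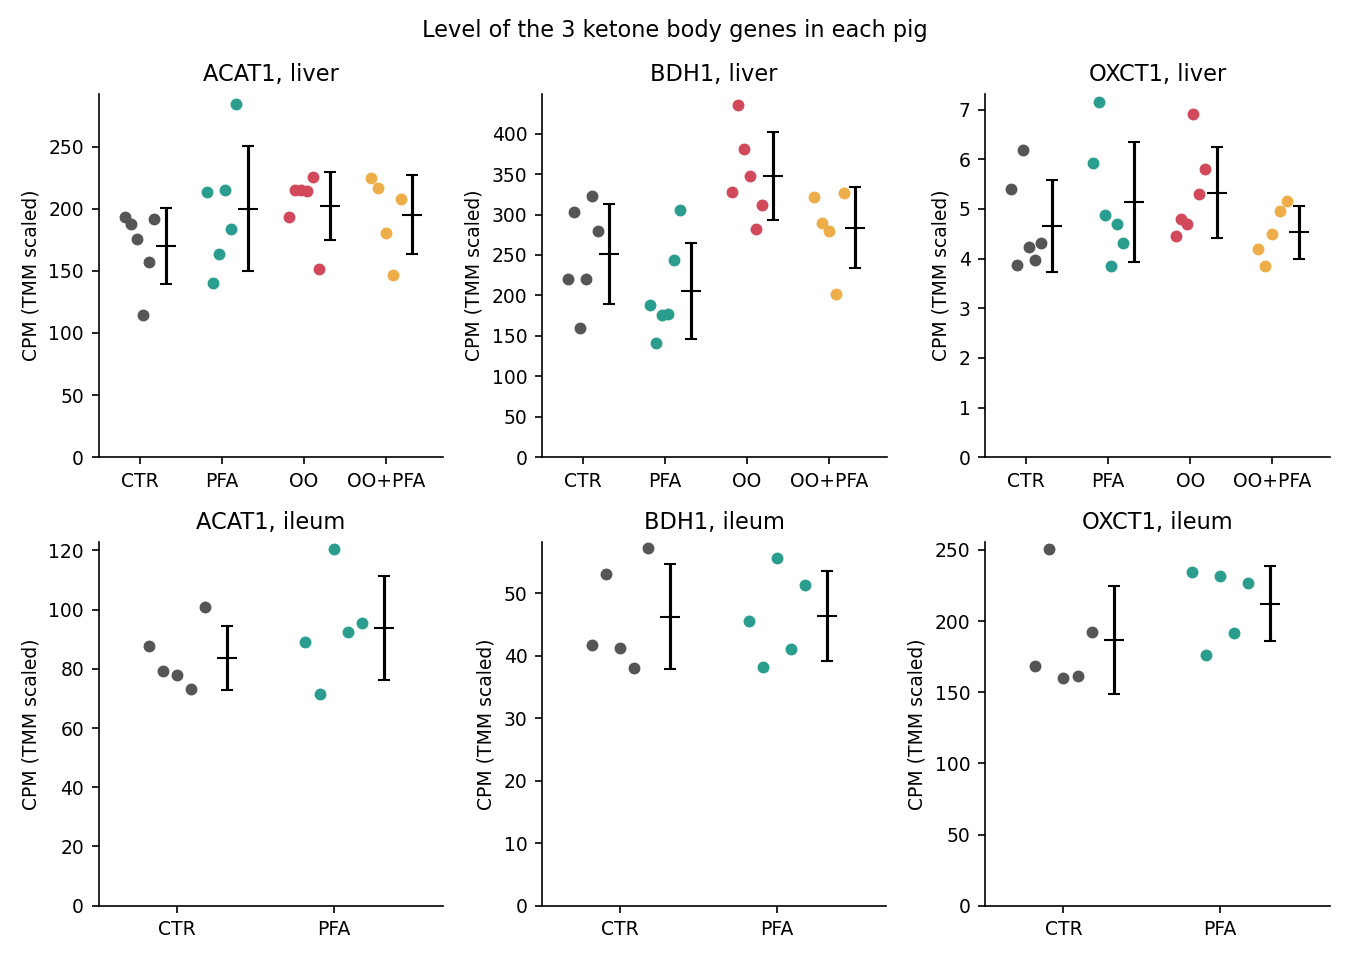
Level of each gene in every pig by diet and tissue (CPM, TMM within a tissue), with the mean and SD of each group as bars. The OO pigs sit highest for BDH1, between 281.7 and 435 CPM, and overlap the CTR pigs, while the diets of ACAT1 and OXCT1 run into each other.

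OO + PFA against CTR moved none of the 3 genes past the threshold, in a comparison where 5.08% of genes passed. The log2 differences were 0.20 for ACAT1 (95% interval −0.15 to 0.54), 0.18 for BDH1 (−0.22 to 0.57) and −0.04 for OXCT1 (−0.39 to 0.32), with edgeR adjusted p of 0.528, 0.645 and 0.931. Adding PFA to the oxidized oil diet gave −0.05 for ACAT1 (−0.40 to 0.29), −0.29 for BDH1 (−0.69 to 0.11) and −0.23 for OXCT1 (−0.59 to 0.12). In that comparison edgeR called 0 genes (0%), with 1176 at an unadjusted p under 0.05 and 31 called by DESeq2. OO and OO + PFA were compared with the same CTR livers, and their differences are not independent.

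The additive on the basal diet left the 3 genes under the threshold as well. PFA differed from CTR by 0.23 for ACAT1 (95% interval −0.10 to 0.56), by −0.29 for BDH1 (−0.67 to 0.09) and by 0.14 for OXCT1 (−0.20 to 0.48), with edgeR adjusted p of 0.595, 0.565 and 0.772. Here too edgeR called 0 genes, with 1522 at an unadjusted p under 0.05 and 43 called by DESeq2. Averaged over both oil levels, a contrast also added after the values were seen, PFA gave BDH1 −0.29 (95% interval −0.57 to −0.01, unadjusted p = 0.0396, edgeR adjusted p = 0.813), ACAT1 0.09 and OXCT1 −0.05, with 0 genes called by edgeR and 844 at an unadjusted p under 0.05. BDH1 differed from CTR by −0.37 within the PigLiv titles and −0.28 within the PL titles.

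The interaction asks whether the oil difference changed with the additive. For BDH1 it was −0.0031 on the log2 scale (95% interval −0.55 to 0.55), for ACAT1 −0.28 and for OXCT1 −0.37 (−0.86 to 0.12), with edgeR adjusted p of 0.998, 0.6 and 0.489. The sign of the BDH1 value changed with the scaling of the libraries, and its interval still allows an interaction in either direction larger than the oil difference itself. No gene was called by edgeR (0%), with 1881 at an unadjusted p under 0.05 and 150 called by DESeq2.

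**Figure D3:**
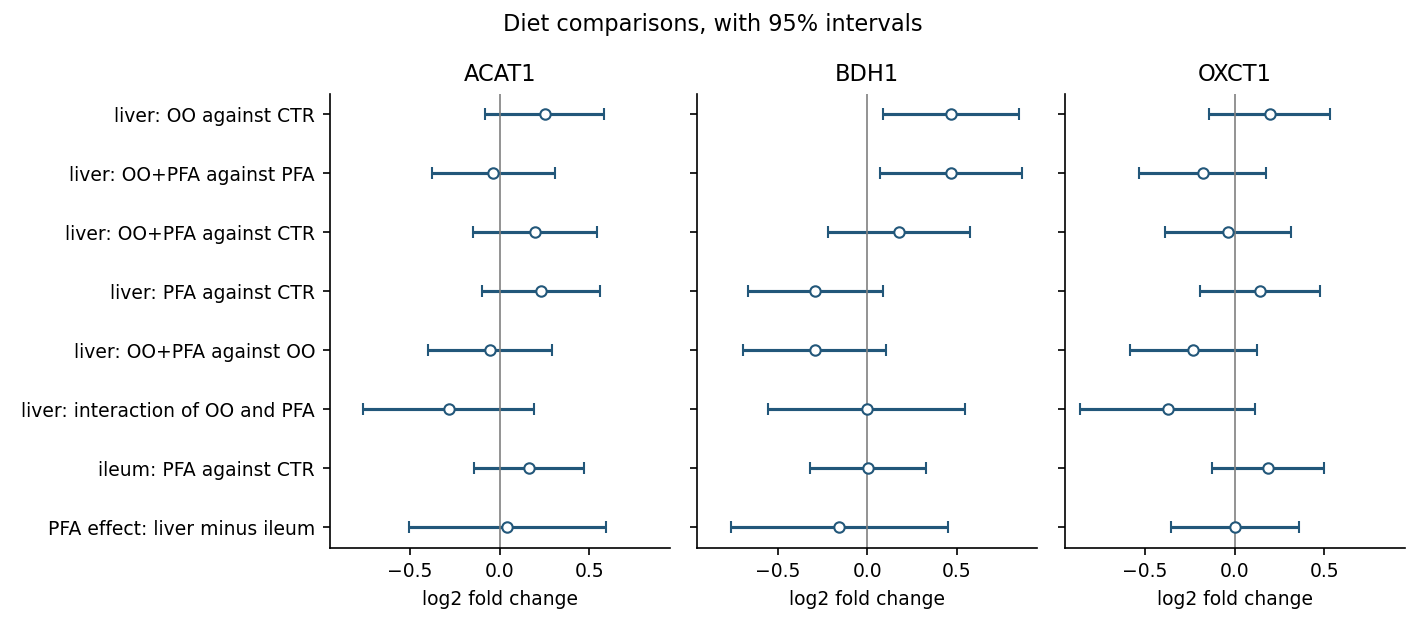
Log2 differences of ACAT1, BDH1 and OXCT1 in each diet comparison, with 95% intervals from the edgeR fit. The interval of BDH1 in OO against CTR, 0.09 to 0.85, leaves out 0 before adjustment over all genes, and those of ACAT1 and OXCT1 include it.

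In ileum, PFA was compared with CTR on its own. ACAT1 was at 77.95, 73.1, 100.8, 87.7 and 79.2 CPM in C-71, C-80, C-92, C-100 and C-110 and at 92.5, 95.4, 89.2, 71.6 and 120.4 CPM in P-75, P-95, P-107, P-134 and P-138. BDH1 was at 41.2, 38.0, 57.2, 41.7 and 53.0 CPM in the CTR pigs and at 41.0, 51.3, 45.6, 38.2 and 55.7 CPM in the PFA pigs. OXCT1 was at 160.3, 161.7, 192.6, 168.6 and 250.5 CPM in CTR and at 191.6, 226.5, 234.6, 176.5 and 231.9 CPM in PFA. The diets overlapped for each gene, and C-110 had the highest OXCT1 level of all 10 ilea.

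The log2 differences were 0.16 for ACAT1 (95% interval −0.14 to 0.47), 0.0049 for BDH1 (−0.32 to 0.33) and 0.18 for OXCT1 (−0.13 to 0.50), with edgeR adjusted p of 0.991, 0.996 and 0.991. Of 14300 genes, edgeR called 0 (0%), with 401 at an unadjusted p under 0.05 and 4 called by DESeq2. The difference between the PFA effect in liver and that in ileum was 0.04 for ACAT1 (−0.51 to 0.59), −0.15 for BDH1 (−0.76 to 0.45) and 0.0004 for OXCT1 (−0.36 to 0.36), and 0 genes were called by edgeR (739 at an unadjusted p under 0.05) or by DESeq2.

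The genes around the 3 enzymes were read in OO against CTR, where 2.71% of all genes passed and the median log2 difference of all genes was 0.06. Of 5 tested ketone synthesis enzymes 0 passed with edgeR or DESeq2 (median 0.25, 2 at an unadjusted p under 0.05), and of 4 tested ketone use enzymes 0 passed with either tool (median 0.35, 2 at an unadjusted p under 0.05). Among them, BDH2 differed by −0.15 (adjusted p = 0.651) and AACS by 0.44 (adjusted p = 0.128).

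In the oil effect averaged over both PFA levels, the contrast added after the values were seen, 11.8% of 13831 genes passed. Of 4 ketone use enzymes 2 passed, BDH1 as given above and AACS, both higher with oil. AACS rose by 0.54 on the log2 scale (SE 0.12, edgeR adjusted p = 0.00826) and stayed past the threshold in 23 of 23 fits without 1 pig (adjusted p up to 0.0198).

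Enzymes that share the thiolase reaction with ACAT1 moved in OO while ACAT1 itself did not pass the test. Of 5 tested thiolases 3 rose: ACAA2, the mitochondrial 3-ketoacyl-CoA thiolase, by 1.80 (log2, SE 0.37, adjusted p = 0.00887), HADHB, the thiolase subunit of the mitochondrial trifunctional protein, by 0.86 (SE 0.16, adjusted p = 0.00329), and ACAA1, the peroxisomal thiolase, by 0.69 (SE 0.15, adjusted p = 0.0101). The cytosolic acetoacetyl-CoA thiolase ACAT2 differed by 0.39 (adjusted p = 0.29). The calls of HADHB and ACAA1 were each lost in 1 alternative, HADHB with OP-77 kept among 24 livers (adjusted p = 0.0641) and ACAA1 in a fit of the OO and CTR livers alone (adjusted p = 0.0549). Whether the thiolases differed from ACAT1 in their response was not tested.

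The steps that feed acetyl-CoA to ketone synthesis gave the highest count. Of 18 tested genes of mitochondrial beta-oxidation 9 rose and 0 fell in OO against CTR (13 rose with DESeq2), with a median log2 difference of 0.86 over the 18. CPT1A, the carnitine palmitoyltransferase that admits fatty acids to mitochondria, rose by 1.60 (SE 0.15, edgeR adjusted p = 4.93e-07), and CPT2, its partner on the inner membrane, by 1.44 (SE 0.18, adjusted p = 3.26e-05). ACAA2 and HADHB belong to that list too. Of 9 regulators known to act on ketone synthesis 2 rose, CREB3L3, a liver transcription factor, by 0.99 (SE 0.14, adjusted p = 0.000156) and FGF21, a fasting hormone, by 1.77 (SE 0.44, adjusted p = 0.0305). The FGF21 call was lost without any 1 of C-80, C-85, C-92, C-110, OO-102 and OO-130 (adjusted p 0.0562 to 0.0865). PPARA, the nuclear receptor that drives fatty acid oxidation, differed by −0.64 (adjusted p = 0.196).

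Genes of leucine and isoleucine breakdown and of the sterol branch did not pass with edgeR. None of 11 genes of leucine breakdown (median 0.0048), of 8 of isoleucine breakdown (median 0.10) or of 4 of the cytosolic acetoacetyl-CoA and sterol branch (median 0.29) was called by edgeR in OO against CTR. At an unadjusted p under 0.05 these were 2, 0 and 1 genes, and DESeq2 called 1 gene of leucine breakdown (BCAT1) and 0 of the other lists. Of 5 tested genes of monocarboxylate transport 0 passed with edgeR (2 at an unadjusted p under 0.05, and EMB alone with DESeq2). SLC16A3 differed by 1.60 (adjusted p = 0.163) and EMB by 0.70 (adjusted p = 0.0851). Of 16 genes of the citrate cycle, which makes the succinyl-CoA that OXCT1 uses, only MDH2, mitochondrial malate dehydrogenase, rose, by 0.65 (SE 0.15, adjusted p = 0.0175), and its call was lost without OO-102 (0.0516) or OO-130 (0.0558), with all 24 livers (0.0786) and in the fit of both diets alone (0.0801).

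In OO + PFA against CTR, 9 of 18 beta-oxidation genes, 2 of 5 thiolases, 3 of 9 regulators and 1 of 4 ketone use enzymes rose, against 5.08% of genes called in either direction. The ketone use enzyme was AACS (0.64, SE 0.17, adjusted p = 0.0357), whose call was lost in 7 of 11 fits that left out 1 pig. CREB3L3 (0.67, adjusted p = 0.0166) and HADHB (0.73, adjusted p = 0.0189) kept theirs in all 11, whereas ACAA1 lost it in 10, NCOR1, a corepressor, in 10 and FGF21 in 5. In PFA against CTR and in OO + PFA against OO, 0 genes of any of these lists passed with edgeR or DESeq2, and at an unadjusted p under 0.05 no list had more than 2. All of these lists were drawn up with earlier results of these data known.

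**Figure D4:**
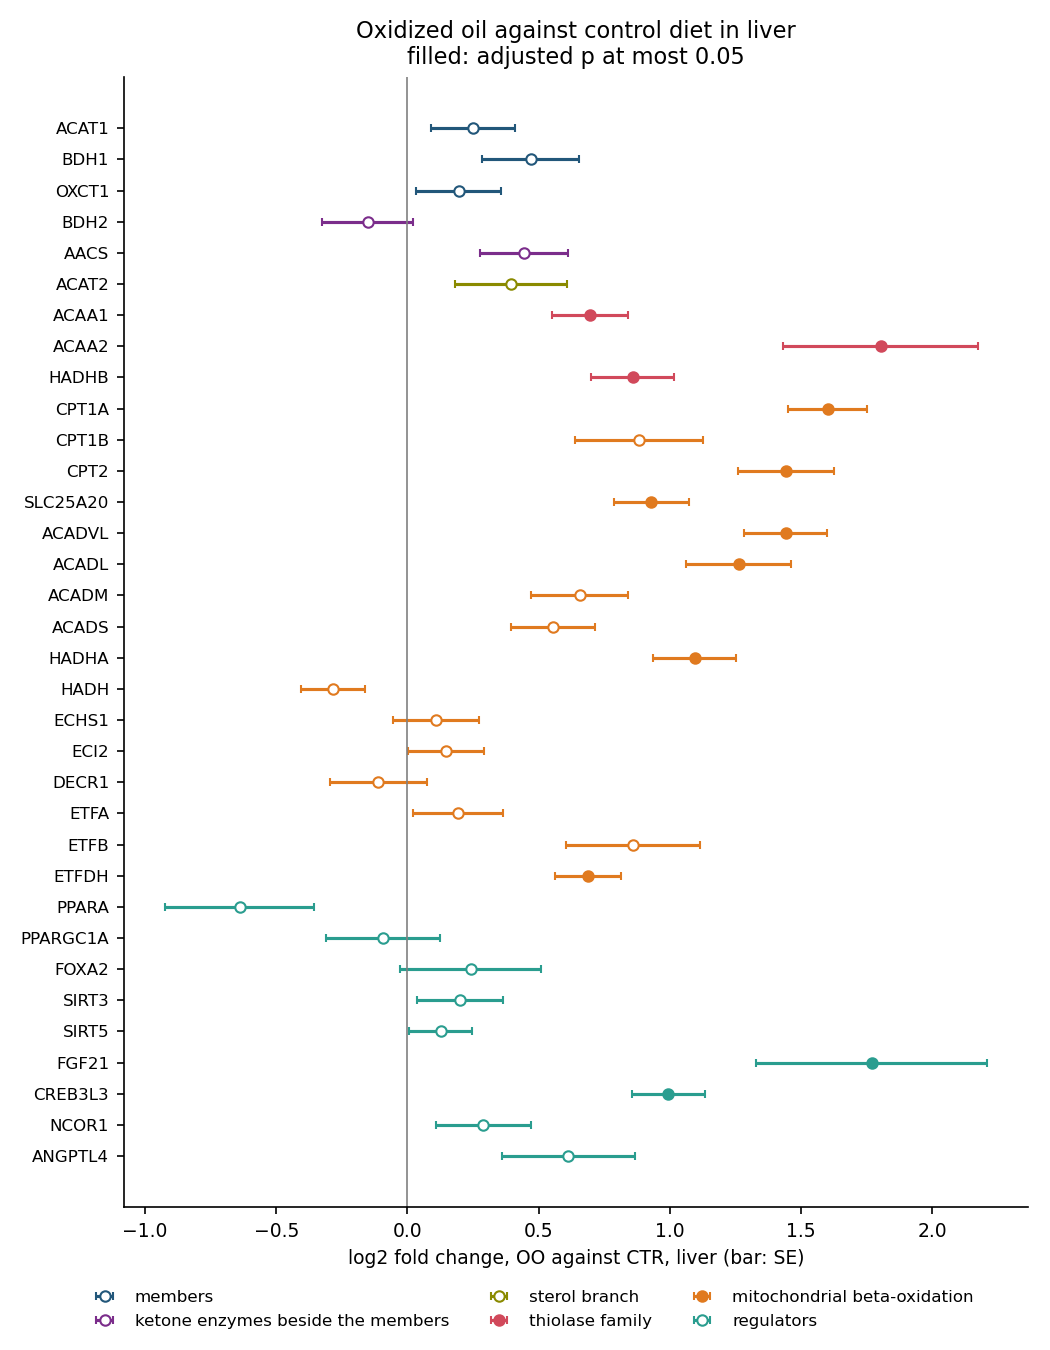
Log2 differences of genes of the lists in liver, OO against CTR (bars, SE), with filled points for an edgeR adjusted p of at most 0.05. Beta-oxidation and thiolase genes hold most of the filled points, CPT1A at 1.60 and ACAA2 at 1.80 among them, while ACAT1, BDH1 and OXCT1 are open, and ACAA2 and HADHB, which belong to both lists, are drawn with the thiolases.

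Over the 23 livers, the 3 genes did not vary as a unit. Pearson's r of log2 CPM was 0.43 between ACAT1 and BDH1, −0.15 between ACAT1 and OXCT1 and −0.33 between BDH1 and OXCT1, over libraries that share their scaling and differ in depth and diet. The genes most like ACAT1 by this measure were RTN4 (r = 0.93), COP1 (0.92), NUBPL (0.92), MCEE (0.92) and SLC49A4 (0.91), and after subtraction of diet means these values were 0.90 to 0.93. Those most like BDH1 were SLC25A3 (0.84), ENTPD5 (0.83), FADS2 (0.82), ACAA1 (0.81) and COQ9 (0.81), and 0.58 to 0.79 within diets. Those most like OXCT1 were ENTPD1 (0.73), RCSD1 (0.71), ETS1 (0.70), PYGM (0.66) and GNG12 (0.66), and 0.61 to 0.70 within diets. These are descriptions of the same libraries, chosen as the highest of 13831 genes.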

How the data were processed

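The authors sequenced stranded, poly(A)-enriched libraries of liver and ileum, aligned reads with STAR 2.6.1d to Sscrofa11.1 and counted them per Ensembl gene with HTSeq, and the deposited values are raw counts per gene and library. The submitters' processing notes also name DESeq2 1.22.2. The annotation release and the strand setting are not given in the sources used here. The tables of the whole series held the same counts and were not used, and rows that name no gene stayed out of library sizes.

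Symbols were matched to 14857 of 25880 Ensembl genes. Low genes were removed with filterByExpr, counts were scaled with TMM and tested with edgeR 4.0.16 (quasi-likelihood test, R 4.3.3), with Benjamini-Hochberg adjustment over 13831 genes in liver, 14300 in ileum and 14982 in both, and a call at an adjusted p of at most 0.05. Intervals are 95% intervals from the fit. Correlations used log2 CPM with a prior count of 2. DESeq2 1.42.0, RLE and upper quartile factors, no filter, at least 10 counts in every library, all 24 livers, fits of 2 diets alone, a term for the title form and leaving out each pig were the alternatives. The oil and PFA effects averaged over the other factor and OO + PFA against PFA, and the shortest RefSeq model as a gene's length, were added after the values were seen. The model scripts were tested on simulated data.

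The 10 ileum pigs also gave livers. The samples are thus paired by pig, as the shared pig numbers in the labels give it. The deviations of a pig's liver and ileum from their group means correlated with r from −0.18 to 0.46, above 0.1 in 8 of 10 pigs. No 2 libraries held identical counts. Each library is 1 pig, and pigs of a diet shared a pen.

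The 3 genes and all lists were chosen with earlier results of these data known. Named genes were the 3 genes throughout, every measured gene of the ketone synthesis, ketone use, sterol branch, transport, regulator and thiolase lists, up to 3 called genes with the largest differences in OO against CTR of each other list, and the 5 genes most correlated with each of the 3. Some genes of these lists are not reported here. Exon lengths, positions and windows came from the RefSeq annotation of Sscrofa11.1, read with pysam 0.24.0. A correction for GC content was void, since only 78.1 to 79.4% of tested genes had a value.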

Additional observations from a re-analysis of the deposited data

How the results depend on the processing

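With a replicate block for the pig, the tissue differences were 2.13 for ACAT1, 3.44 for BDH1 and −4.18 for OXCT1 (edgeR adjusted p = 8.12e-08, 1e-09 and 7.78e-10), and the block changed no call. In the other settings tried, each tissue difference of the 3 genes kept its direction and call. BDH1 among the 4 diets passed with DESeq2 (adjusted p 0.0252) and ran from 0.0227 to 0.115 over fits without 1 pig. BDH1 in OO against CTR passed in no setting tried, with an edgeR adjusted p of 0.0797 to 0.323 without 1 pig. The oil effect averaged over PFA, which is another contrast, passed (0.4676, edgeR adjusted p = 0.0266), at 0.0104 to 0.0548 without 1 pig. Values near 0 changed sign, all without a call. The BDH1 interaction was 0.0052 with upper quartile factors, 0.0189 with at least 10 counts and 0.0791 with a title term, and −0.0901 to 0.14 without 1 pig. BDH1 for PFA in ileum was −0.012 with upper quartile factors and −0.0692 to 0.0739 without 1 pig. The tissue difference of the PFA effect for OXCT1 was −0.005 with RLE, −0.009 with no filter, −0.0149 with at least 10 counts, −0.002 with DESeq2 and −0.0124 with the replicate block, and −0.19 to 0.15 without 1 pig, and for ACAT1 −0.13 to 0.22. OXCT1 in OO + PFA against CTR was 0.1314 with all 24 livers and −0.0889 to 0.058 without 1 pig, ACAT1 in OO + PFA against OO −0.12 to 0.0357, and OXCT1 for PFA averaged over oil −0.0455. The count of all genes called in OO against CTR was 375 in the design as reported, 1079 with DESeq2, 224 with all 24 livers, 194 in a fit of both diets alone, and 167 (without OO-130) to 1325 (without OO-97) over fits without 1 pig. In OO + PFA against CTR it was 702, and 1370, 1530, 1690 and 191 (without C-71 or without C-100) to 703 in the same order, and among the 4 diets 506, and 1776 with DESeq2, 1113 with all 24 livers and 297 (without C-85) to 1450 (without OO-97). The 0 calls of the interaction became 2 with RLE, upper quartile factors or no filter, 150 with DESeq2 and up to 5 without 1 pig, those of OO + PFA against OO 1 with upper quartile factors or all 24 livers, 31 with DESeq2 and up to 7, and those of PFA 43 in liver and 4 in ileum with DESeq2. The cause was not tested. OXCT1 rested on 82 to 224 read pairs a liver, yet its SE in OO against CTR (0.16) was like those of ACAT1 (0.16) and BDH1 (0.18).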

Other observations

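The liver of OP-77, left out of the comparisons, held ACAT1 at 50.96 CPM, BDH1 at 192.1 CPM and OXCT1 at 7.98 CPM on the scale of all 24 livers. Its ACAT1 level rested on 728 read pairs, against 3037 to 9538 in the other 23 livers.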
